A study of Bos taurus with 13 samples.

Results

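The adrenal array set RNA of bovine adrenal tissue (channel 2) against total RNA of the BovMac cell line, used as a common reference (channel 1), on a cDNA microarray built from mammary clones. It is 1 of 13 two-colour hybridisations in the series and was compared here with the 7 other arrays that set a tissue against the same reference. Among those 7, the mammary gland came from a prepubertal Holstein heifer of 136 kg, and the rest were thymus, spleen, lymph tissue, liver, ileum and adipose tissue. All 8 arrays share the BovMac reference, and the labels give no age, sex, breed or number of animals for the tissues other than the mammary gland. A further 2 arrays set the reference against itself and served as background, as neither channel of them held tissue. Each tissue had 1 array, so no difference below has a replicate check or a p-value, and the errors given are SDs over spots of 1 gene on 1 array, which cover spotting and scanning but not animals.

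The adrenal gland joins an outer cortex, which makes steroid hormones from cholesterol, to an inner medulla of chromaffin cells, which make and store catecholamines. Cortical cells take up and synthesise cholesterol and respond to corticotropin through cyclic AMP and factors of the CREB family. Both parts are rich in blood vessels, and medullary cells release their product through regulated vesicle traffic.

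The array could not check the tissue label. Of the fixed lists, that of cortical steroidogenesis (such as STAR, CYP11A1 and CYP17A1) and that of chromaffin cells (such as TH, DBH and CHGA) each had 0 genes on the platform. What follows is therefore about genes cloned from mammary gland, as read in adrenal RNA. Of 706 genes named by the platform annotation, 695 had at least 2 spots with a ratio on every tissue array and were compared. All values are log ratios, for which the sources used here give neither base nor direction, and each array was centred on its median. A unit is 2-fold if the base is 2 and 2.72-fold if the logarithm is natural. Positive and negative below are the signs of the deposited ratio, and above and below trade places if every array is turned.

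Adrenal ratios were small and went against those of the other tissues. The SD over genes was 0.14 on the adrenal array, 0.14 to 0.24 on 6 of the others and 0.50 on the ileum array. The mean Spearman rho between spots of a clone was 0.53 on the adrenal array, the lowest of the 8 tissue arrays, whose other values ran from 0.60 to 0.85. It was 0.58 and 0.11 on the reference against reference arrays. Across the 695 genes, adrenal values had a Pearson r of -0.20 with the mean of the other 7 tissues, and by ranks the rho was -0.23. The points of this description share the reference RNA and the spotted clones, and genes are not replicates. Each of the other 7 tissues, set against the mean of its own other 7, gave a positive r, from 0.17 for liver to 0.65 for spleen. With adrenal left out of those means, the same r ran from 0.21 for liver to 0.68 for spleen.

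Liver and spleen had the most negative r with adrenal in the deposited direction. Pearson r with the adrenal array was -0.32 for liver, -0.28 for spleen, -0.17 for thymus and -0.14 for lymph tissue. It was near 0 for ileum (-0.042), prepubertal mammary gland (-0.041) and adipose tissue (-0.02). Over gene means all 7 pairs with adrenal were below 0, against 1 of the 21 pairs among the other tissues, whose median r was 0.33. The sign held in other subsets for liver, spleen, thymus and lymph tissue, but not for the 3 tissues near 0. Over single spots, before averaging, r was -0.15 with liver and -0.096 with spleen, but 0.022 with adipose tissue and 0.07 with mammary gland. Over the genes with an adrenal SD over spots under the median it was 0.028 with ileum and 0.0026 with mammary gland, and without the 10 genes of most negative product 0.0014 with adipose tissue and 0.0081 with ileum. With the sign of the adrenal ratio turned, which the unstated dyes leave possible, the r with the mean of the other 7 was 0.20, and liver (0.32) and spleen (0.28) were the tissues with the highest r.

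By ranks the adrenal array also correlated with 1 of the 2 reference against reference arrays. Its Spearman rho with array 1 of that pair was 0.30, where the other 7 tissues gave rho from -0.12 to 0.19. By Pearson r the contrast was slight, as adrenal was at 0.16 and the other 7 ran from -0.14 to 0.14. With array 2 the adrenal rho was -0.046. The part of such spot or dye differences in the negative correlation was not tested. The partial Pearson r with the mean of the other 7, given array 1, was -0.20. As adrenal had a Pearson r of only 0.16 with array 1, this partial value could hardly move. It does not address the correlation by ranks.

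**Figure D1:**
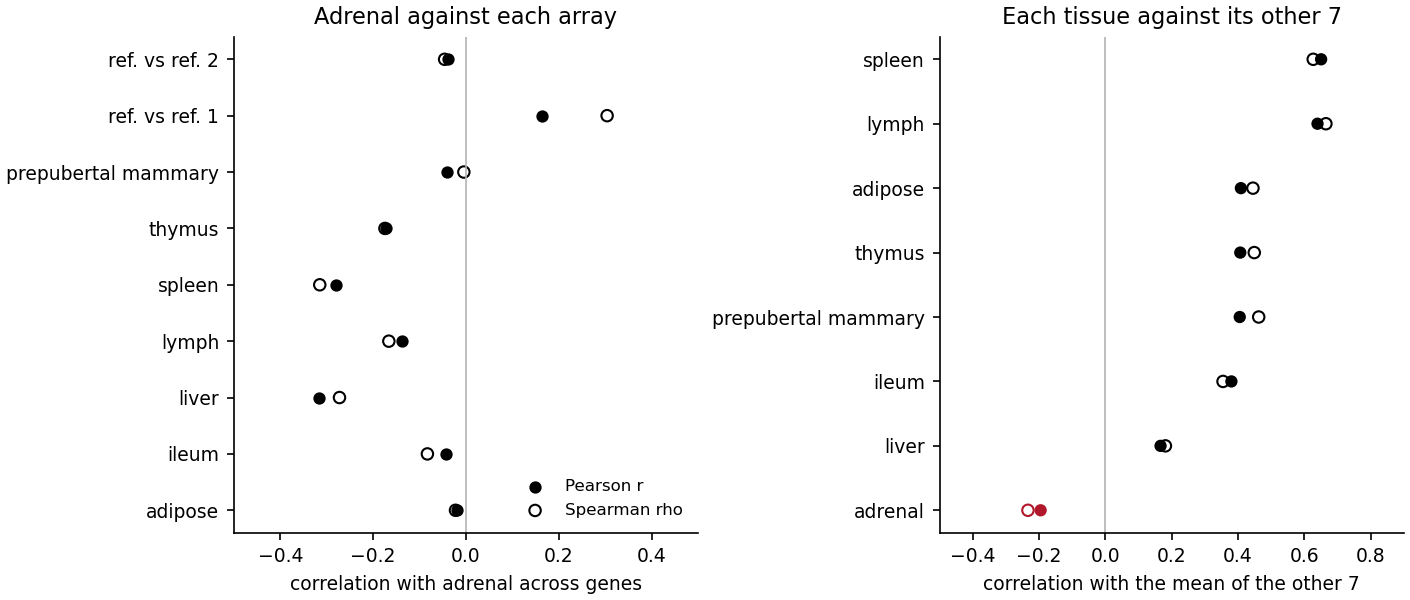
Left, Pearson r (filled) and Spearman rho (open) between the adrenal array and each other tissue array or reference against reference array, across genes. Right, the same for each tissue array against the mean of its own other 7, with adrenal in red at -0.20 and all other tissues above 0.

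Genes on opposite sides were many. For 417 of 695 genes (60%) the adrenal value and the mean of the other 7 lay on opposite sides of 0. In the fifth of genes with the lowest mean over the other tissues (median -0.18) the median adrenal value was 0.03, with quartiles at -0.05 and 0.10. In the fifth with the highest mean (median 0.19) it was -0.06, with quartiles at -0.17 and 0.07. The quartile ranges of the lowest and highest groups overlapped, so the mean over the other tissues says little about 1 gene. Leaving out the 10 genes that contributed most to the negative sum moved r from -0.20 to -0.14.

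**Figure D2:**
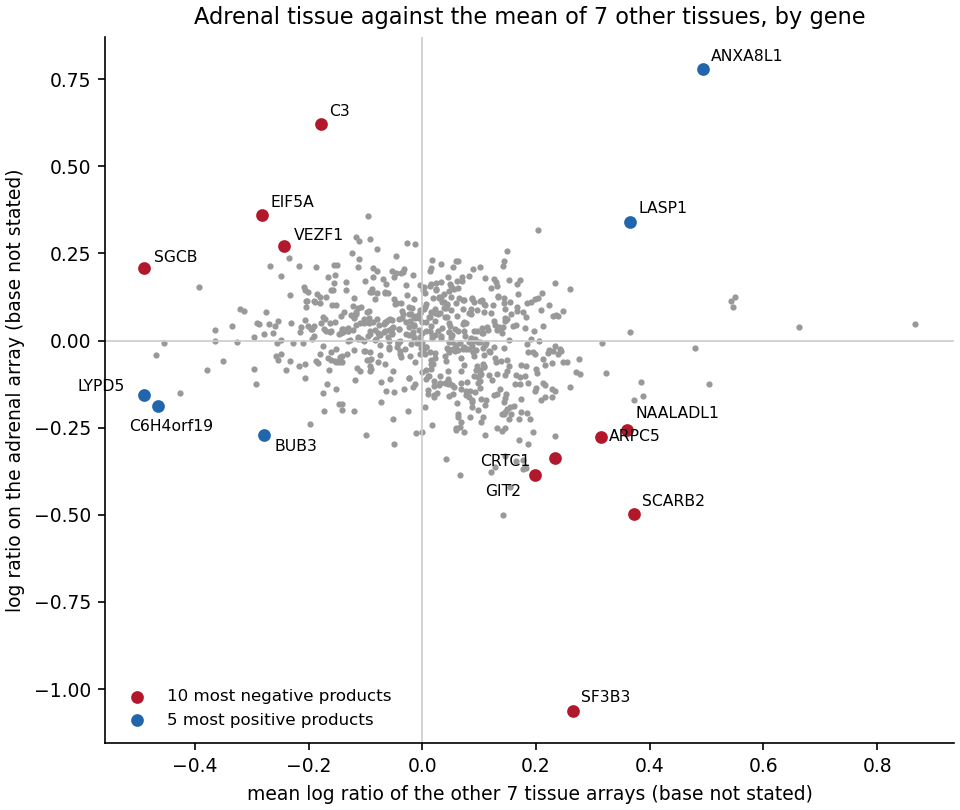
Log ratio on the adrenal array against the mean of the other 7 tissue arrays for 695 genes, with the 10 most negative (red) and 5 most positive (blue) products of centred values labelled. SF3B3 at -1.06 lies lowest and ANXA8L1 at 0.78 highest.

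Genes that all other tissues placed on 1 side of 0 showed the opposition most plainly. The other 7 tissues were all positive for 51 genes, and adrenal was negative for 30 of them. They were all negative for 46 genes, and adrenal was positive for 36. Together these 66 genes were 68.0% of the 97, and 9.50% of all genes compared. The matching share was 51.6% for liver, set against its own other 7, and 6.06% to 27.9% for the remaining tissues. Those sets include adrenal, which went against the rest, and with adrenal left out the shares were 42.6% for liver and 5.83% to 26.5% for the others. In 38 of the 66 genes the adrenal value was further from 0 than its SD over spots. With the adrenal sign turned, 31 genes would go against all 7.

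Of the 695 genes, 105 (15.1%) lay above the highest and 113 (16.3%) below the lowest of the other 7 on the adrenal array. For 109 of these 218 (31.4% of all genes) the margin to the nearest tissue was larger than the SD over adrenal spots. Such counts were not particular to adrenal. Set against its own other 7, ileum had 165 genes above and 170 below, thymus 93 and 117, and liver 89 and 66. Mammary gland had 116 and 32, spleen 38 and 95, lymph tissue 59 and 69, and adipose tissue 30 and 33. At least 0.5 units from the mean of the other 7 lay 26 genes (3.74%), 5 above (0.719%) and 21 below (3.02%). For scale, 3.88% and 13.0% of genes lay at least 0.5 from 0 on reference against reference arrays 1 and 2. The adrenal share lay close to the lower of these background shares, but they are an unlike measure, taken from 0 on 1 array. Set against its own other 7, ileum had 49 genes above and 60 below, mammary gland 25 and 6, and thymus 6 and 11. Liver had 4 and 9, adipose tissue 4 and 7, spleen 3 and 3, and lymph tissue 0 and 4. Without ileum the adrenal counts were 3 above and 11 below, as 13 of the 21 had their highest value in ileum.

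RNA splicing held the lowest gene. SF3B3, a subunit of the SF3b complex that recognises the branch site of introns, stood at -1.06 ± 0.59 (SD, 3 spots) in adrenal tissue, with spots at -0.48, -1.05 and -1.66. The other tissues were at 0.09 in ileum, 0.13 in mammary gland, 0.16 in adipose tissue, 0.24 in lymph tissue, 0.30 in liver, 0.46 in spleen and 0.47 in thymus. Each adrenal spot lay below every other tissue's mean, and the difference from their mean was -1.33. It was the only gene at least 1 unit from 0 on the adrenal array. It was at 0.13 on reference against reference array 1 and had no value on array 2.

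TRA2A, an activator of splice site choice, was at -0.38 ± 0.07, while the other 7 ran from -0.05 to 0.58 with a median of 0.01 and liver highest. SF1, which binds the branch site before SF3b, was at -0.21 ± 0.13 against 0.04 to 0.31. On the opposite side HNRNPUL1, an hnRNP-like RNA-binding protein, was at 0.08 ± 0.10 (6 spots) against -0.60 to -0.05. The splicing list as a whole did not lean: 15 of 28 genes lay above the mean of the other tissues and 13 below, with 4 above and 4 below all of them. The list's median difference was 0.01, as over all genes (0.01).

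The 3 largest differences on the positive side were those of C3, SGCB and EIF5A. SGCB, the beta subunit of the sarcoglycan complex in the membrane, was at 0.21 ± 0.06, with spots at 0.19, 0.28 and 0.16. All 7 other tissues were negative, at -0.83 in thymus, -0.60 in adipose tissue, -0.56 in mammary gland, -0.53 in ileum, -0.38 in liver, -0.37 in spleen and -0.14 in lymph tissue. The adrenal spots did not overlap these values, and the difference was 0.70. Both reference against reference arrays gave SGCB a negative ratio (-0.26 and -0.32), as the other tissues did.

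C3, the central complement protein, was at 0.62 ± 0.60, from spots at 0.15, 1.30 and 0.41. The other tissues ranged from -1.10 in liver to 0.44 in adipose tissue, so 2 of its 3 adrenal spots lay within their range. EIF5A, a factor of translation elongation, was at 0.36 ± 0.81 over 5 spots. That mean rested on 1 spot at 1.79, the other 4 lying between -0.16 and 0.21. ANXA8L1, an annexin, had a like pattern on the adrenal array, at 0.78 ± 1.33 with spots at -0.17, 0.21 and 2.30.

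Several further genes lay above all other tissues with close spots. VEZF1, a transcription factor of vascular endothelium, was at 0.27 ± 0.04 against -0.70 to 0.09. GLUL, glutamine synthetase, was at 0.21 ± 0.08 and negative in all others (-0.62 to -0.05). FERMT2, a kindlin that activates integrins, was at 0.21 ± 0.03 against -0.39 to 0.0019. QKI, an RNA-binding protein, was at 0.30 ± 0.09 against -0.40 to 0.03. ERLEC1, a lectin of the endoplasmic reticulum, was at 0.19 ± 0.11 against -0.45 to 0.03. For all 5 the margin to the nearest tissue was larger than the SD over adrenal spots.

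For ACTN1, EIF4G1, CTNNAL1 and CIAO1 adrenal was the highest tissue by less than 1 SD over spots. ACTN1, which crosslinks actin, was at -0.01 ± 0.14 and ileum at -1.44. EIF4G1, the scaffold of the cap-binding complex, was at -0.04 ± 0.08 and ileum at -1.15. CTNNAL1, related to alpha-catenin, was at 0.24 ± 0.10 and ileum at -1.20. Without ileum the differences from the mean of the rest were 0.28 for ACTN1, 0.31 for EIF4G1 and 0.31 for CTNNAL1, against 0.45, 0.43 and 0.47 with it. CIAO1, of cytosolic iron-sulfur cluster assembly, was at 0.09 ± 0.10, with adipose tissue at -0.91 and spleen at -0.67.

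**Figure D3:**
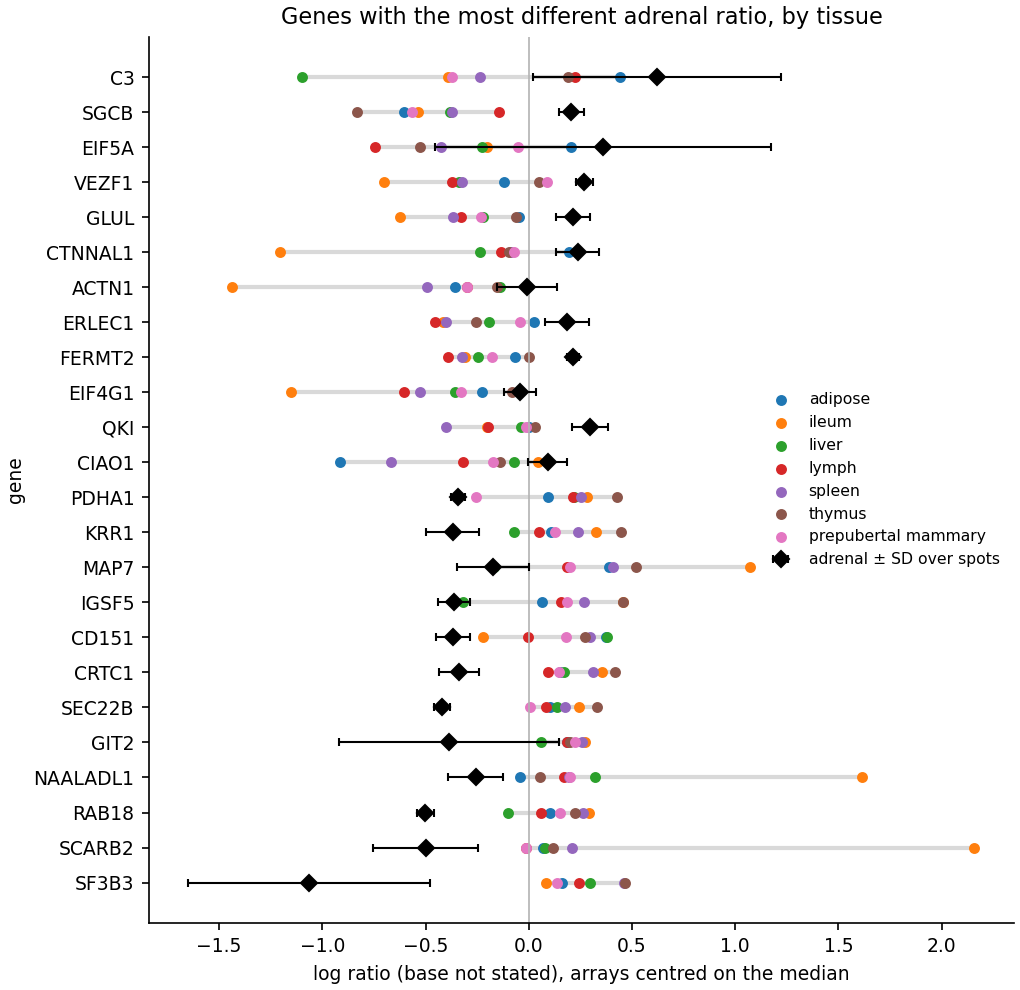
Log ratios of the 12 genes with the highest and the 12 with the lowest difference among those outside the range of the other tissues. Diamonds give adrenal with the SD over spots, coloured points the other 7 tissues and grey bars their range. SF3B3 stands 1.15 below the nearest tissue and SGCB 0.35 above it.

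Vesicle traffic genes included RAB18 and SEC22B on the low side. RAB18, a small GTPase of the endoplasmic reticulum and lipid droplets, was at -0.50 ± 0.04, with the other 7 between -0.10 in liver and 0.29 in ileum. SEC22B, a SNARE of traffic from the endoplasmic reticulum to the Golgi, was at -0.42 ± 0.04 against 0.0048 to 0.33. Spots of both genes lay close together, and the margin to the nearest tissue was larger than their SD. BET1, a SNARE of the same step, lay on the other side, at 0.03 ± 0.04 against -0.77 to -0.14. EXOC4 of the exocyst was at -0.15 ± 0.11 against 0.07 to 0.56. In the list of endoplasmic reticulum and Golgi traffic 5 genes lay above and 7 below all other tissues of 37, close to the shares over all genes (15.1% and 16.3%), with a median difference of 0.02. That list was drawn partly by the first letters of symbols and so took in EMCN, an endothelial sialomucin.

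SCARB2, a lysosomal membrane protein, was at -0.50 ± 0.25, with spots at -0.23, -0.53 and -0.73. The other tissues were at -0.02 to 0.21 apart from ileum at 2.16, and the difference of -0.87 was -0.57 without ileum. It was the 1 gene of 8 in the lysosome and sphingolipid list outside the range of the other tissues. LAMP2, ASAH1, CERS2 and LIPA lay within it.

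Of the genes near hormone signalling, CRTC1 stood apart. CRTC1, a coactivator of CREB, was at -0.34 ± 0.10 in adrenal tissue and positive in all 7 others, from 0.09 in lymph tissue to 0.42 in thymus. It was also negative on both reference against reference arrays (-0.38 and -1.14). ATF4, a stress-responsive factor of the same protein family as CREB, was at 0.02 ± 0.10 and ATF1, a CREB relative, at 0.18 ± 0.13. The other 7 ran from -0.60 to 0.01 for ATF4 and from -0.50 to 0.48 for ATF1. EGR1 (0.04 ± 0.09) and AKAP2 lay within the range of the other tissues, and the median difference of the 5 genes was -0.0027.

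The 3 measured genes of cholesterol handling did not lie on 1 side. SC5D, the sterol C5 desaturase of late cholesterol synthesis, was at 0.11 ± 0.02 and negative in all others (-0.40 to -0.0056). IDI1, an isomerase of isoprenoid synthesis, was at -0.06 ± 0.04, within a range of -0.20 to 0.97 whose top was mammary gland. LIPA, which frees cholesterol from lysosomal esters, was at -0.03 ± 0.04, again within the range (-0.14 to 0.32).

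Antigen presentation was the list with the most negative median, -0.47 over 4 genes, all below the mean of the other tissues. BOLA of class I was at -0.12 ± 0.07 and TAP1, the peptide transporter, at -0.13 ± 0.14, both below all 7 others but by less than the SD over spots. BOLA-DRB3 (0.05 ± 0.08) and CD74 (0.11 ± 0.02) of class II lay near the low end of the other tissues but within their range. Ileum, at 3.17 for BOLA-DRB3 and 2.41 for CD74, set much of these differences, and without ileum the list's median difference was -0.27. Leukocyte genes did not share this side. PTPRC, LCP1 and RAC2 were all above the mean of the other tissues, and all within their range.

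Markers of other cells that adrenal tissue can hold were few. Of the 3 hepatocyte genes, A2M (-0.38 ± 0.14) lay below all other tissues, FGG of fibrinogen (-0.06 ± 0.19) within their range and C3 above it. Liver was the lowest of the other tissues for A2M (-0.27) and C3 (-1.10), although both are secreted by hepatocytes. FGG went the other way, as liver (0.21) lay above all other tissues but mammary gland (0.44). Of 10 stroma genes 1 lay above and 1 below all other tissues: LAMC1, a laminin chain, at 0.06 ± 0.06 and COL6A2, a collagen VI chain, at -0.33 ± 0.10. Of the adipocyte list CD36 and SCD were measured, with a median difference of -0.17, both below the mean of the other tissues. The endothelial genes CAV1 and EMCN lay on opposite sides, at differences of 0.13 and -0.34. S100B was the only gene of the nerve and glia list, at a difference of -0.24, and no red blood cell gene was measured. The part of cell makeup in these ratios was not tested, and in tissue RNA fewer cells of a type and less RNA per cell cannot be told apart.

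Of 7 milk protein genes 6 were below the mean of the other tissues and 3 below all of them, with a median difference of -0.18. LTF, the iron-binding lactoferrin, was at -0.26 ± 0.02 against 0.01 to 0.30, and LALBA, alpha-lactalbumin, at -0.22 ± 0.17 (6 spots) against -0.02 to 0.22. CSN2 of beta-casein lay 0.0020 below the lowest other tissue, at -0.07 ± 0.18 over 9 spots, which is no separation. Over all genes 48.3% lay below the mean of the other tissues and 16.3% below all of them. With the adrenal sign turned, 5 of the 7 milk protein genes lay above the mean of the other tissues and the median difference was 0.067.

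Of 16 solute carriers 11 lay below the mean of the other tissues, 6 of them below all 7, and 2 lay above all 7. Over all genes 48.3% lay below the mean, 16.3% below all 7 and 15.1% above all 7. For some of the 6, among them SLC37A2 and SLC39A8, the margin was smaller than the SD over adrenal spots. SLC28A3, a nucleoside transporter, was at -0.22 ± 0.21 over 6 spots. These did not agree, at -0.47, -0.36, -0.41, -0.10, -0.0087 and 0.0040 in file order. SLC37A2 and SLC37A3, sugar phosphate exchanger family members, lay on opposite sides, at -0.25 ± 0.12 and 0.21 ± 0.13. The list's median difference was -0.07. With the adrenal sign turned, 8 lay above and 8 below the mean of the other tissues.

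Translation genes split evenly, 7 above and 7 below the mean of the other tissues. RPL9 of the large ribosomal subunit was at -0.27 ± 0.14 against -0.03 to 0.49, and MRPL30 of the mitochondrial ribosome at 0.19 ± 0.10 against -0.73 to 0.07. On reference against reference array 1 RPL9 stood at -0.70. PDHA1, a subunit of pyruvate dehydrogenase, was at -0.34 ± 0.03, with mammary gland next at -0.26 and the other 6 positive. The mitochondrial list had a median difference of -0.0078, with UQCRC2 of respiratory complex III at -0.19 ± 0.14 and the outer membrane channel VDAC3 at -0.03 ± 0.09, both below all other tissues, VDAC3 by less than its SD over spots. TOMM70, a receptor of mitochondrial protein import, lay above all others at 0.14 ± 0.09, also by less than its SD over spots.

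Actin genes split too. GIT2, a regulator of Arf GTPases and cell adhesion, was at -0.39 ± 0.53, from spots at 0.15, -0.91 and -0.40, while the other tissues lay between 0.06 and 0.27. CAPZA2, which caps actin filaments, was at -0.26 ± 0.11 against 0.03 to 0.29. ARPC5 of the Arp2/3 complex was at -0.28 ± 0.47 on 2 spots, inside a range of -0.54 to 1.16. Against them stood ACTN1, above all other tissues. ACTB, with 150 spots, lay at -0.18 ± 0.13 in adrenal tissue, within -0.38 to 0.21. Of the other loading controls, YWHAZ was at 0.15 ± 0.03 and negative in all 7 others (-0.65 to -0.04). HPRT1 went the other way, at -0.16 ± 0.05 and below all 7 others (-0.12 to 0.24), though by less than its SD over spots.

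Lists of housekeeping functions had medians near that of all genes. Of 20 ubiquitin and proteasome genes 12 lay above the mean of the other tissues, with a median difference of 0.06. UBE2D3, a ubiquitin-conjugating enzyme, was at 0.29 ± 0.16 against -0.24 to 0.01, and BIRC6, a giant inhibitor of apoptosis with ubiquitin ligase activity, at -0.17 ± 0.05 against -0.05 to 0.55. Of 15 kinase and small GTPase genes 9 lay above (median 0.06), of 10 chaperones 6 (median 0.03), of 17 chromatin and transcription genes 9 (median 0.02) and of 14 replication and mitosis genes 10 (median 0.01). MCM7 of the replicative helicase was at 0.0011 ± 0.06 and negative in all others (-0.69 to -0.04). BRD8, of a histone acetyltransferase complex, was at 0.05 ± 0.13 against -0.66 to -0.14. Over all 695 genes, 51.7% lay above the mean of the other tissues, the share against which these counts are read. Of the 22 lists with at least 3 genes, 13 had a median difference of the other sign once the adrenal sign was turned. Antigen presentation was then at -0.46, but its median adrenal value was only -0.04, so turning the sign could hardly move it.

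Further low genes were CD151, IGSF5, KRR1, MAP7 and NAALADL1. CD151, a tetraspanin that binds integrins, was at -0.37 ± 0.08 against -0.22 to 0.38. IGSF5, a junctional adhesion protein, was at -0.36 ± 0.08 and liver close to it at -0.32. KRR1, a factor of small ribosomal subunit assembly, was at -0.37 ± 0.13 against -0.07 to 0.45. MAP7, which binds microtubules, was 0.0022 below the lowest other tissue, and the peptidase-like NAALADL1, at -0.26 ± 0.13, had an ileum value of 1.62. Without ileum its difference of -0.62 was -0.41.

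**Figure D4:**
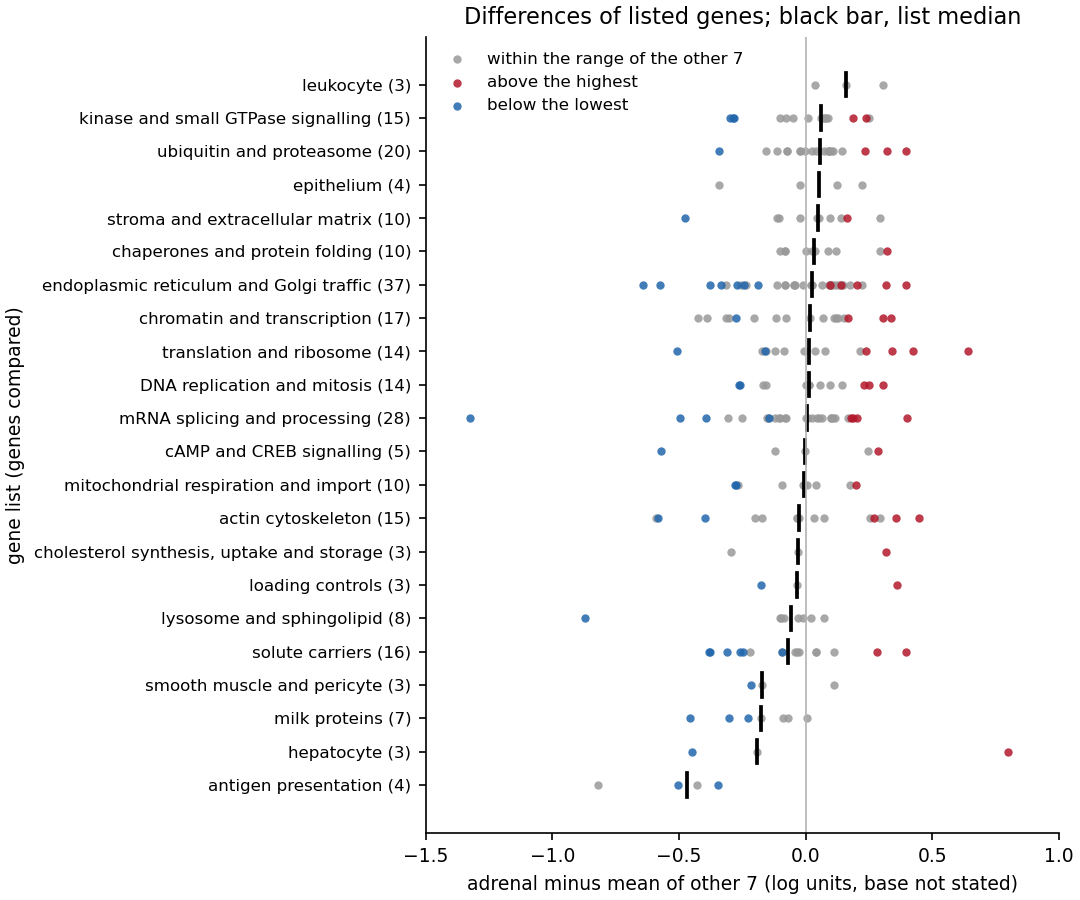
Adrenal minus the mean of the other 7 tissues for each gene of the lists with at least 3 genes compared, coloured by whether adrenal lay within, above or below the range of the other tissues. Black bars give list medians, from -0.47 (antigen presentation) to 0.16 (leukocyte).

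The genes with the most negative products differed in part between tissues. With liver the most negative products were those of C3 (adrenal 0.62, liver -1.10), ARPC5 (-0.28 and 1.16), SF3B3 (-1.06 and 0.30) and TRA2A (-0.38 and 0.58). With spleen SF3B3, EIF5A, C3 and RAB18 came first, and with thymus SF3B3, ARPC5, EIF5A and SGCB. Without SF3B3 and C3, whose spots spread widely, r was -0.28 with liver and -0.27 with spleen. Over the genes whose SD over adrenal spots was under the median of 0.085, it was -0.34 with liver and -0.28 with spleen. These genes and subsets were picked after the values were seen. The genes that pulled r upward were ANXA8L1, LASP1, C6H4orf19, LYPD5 and BUB3. Without ANXA8L1, whose adrenal mean rested on 1 spot, r with the mean of the other 7 was -0.23.

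Position in the deposited table moved with part of the result. The table was read in 27 runs of 144 consecutive spots, whose relation to the slide is not stated. In run 3 the adrenal median was -0.13 and the mean of the other tissues' medians 0.07, and in run 7 they were -0.12 and 0.12. Those runs held 63 of the 695 genes and 8 of the 21 genes at least 0.5 below the mean of the other tissues, among them RAB18, SEC22B, CRTC1, CD151, IGSF5 and MAP7. Centring every run on its own median left 11 genes at least 0.5 below, of which 8 were among the 21. The difference then was -0.44 for RAB18, -0.37 for SEC22B, -0.37 for CRTC1, -0.31 for CD151, -0.34 for IGSF5, -0.31 for MAP7 and -0.28 for COL6A2 (-0.48 before). It was -1.18 for SF3B3, -0.85 for SCARB2, 0.72 for SGCB and 0.75 for VEZF1. The r with the mean of the other 7 was -0.14, and 54 genes went against all 7 tissues.

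**Figure D5:**
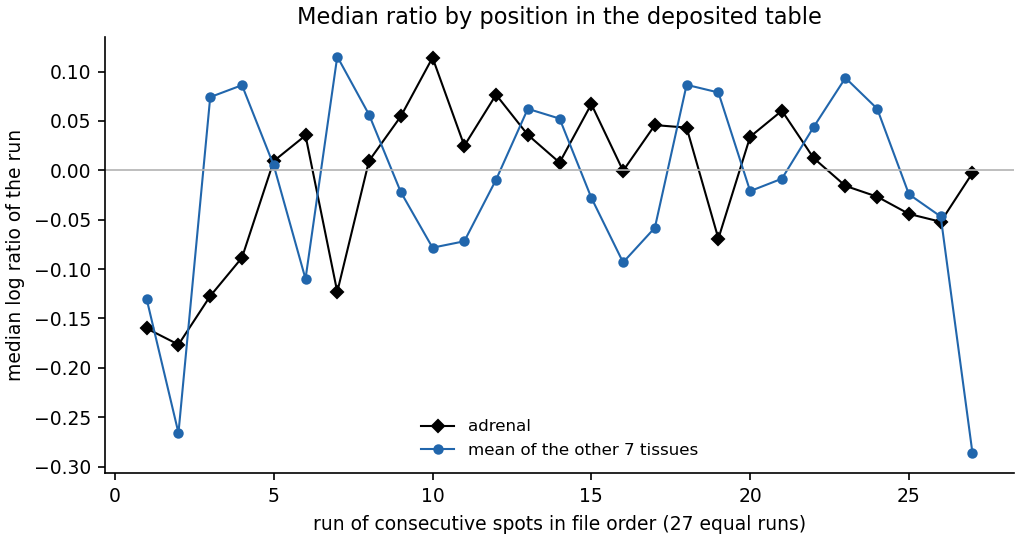
Median log ratio of each run of 144 consecutive spots on the adrenal array (black) and the mean of the medians of the other 7 tissue arrays (blue), in file order. Runs 3 and 7 are negative in adrenal (-0.13 and -0.12) and positive in the others (0.07 and 0.12).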

How the data were processed

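Per the file the authors deposited, each of 3888 spots had 1 log ratio per array, other than a count or a converted level. The sources used here name the RNA of each channel but no background correction, normalization, base, dyes or order of the channels in the ratio. Spots ran as 1296 clones of 3. In the platform annotation 2538 spots had a single gene symbol, 30 had several and 1320 had none. By identifier, 703 of the 706 genes were found in RefSeq (assembly ARS-UCD2.0), with 0 symbols changed. An exact 0 (124 to 193 spots per tissue array) was taken as missing, each array was centred on its median, and spots were averaged per gene (minimum 2). Adrenal minus the mean of the other 7 was a description with no test, checked on simulated data. 1 array per tissue limits the precision. cDNA clones can bind RNA of related genes.

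Named genes were the 12 highest and 12 lowest differences outside the range of the other tissues, the 10 most negative and 5 most positive products, the cholesterol list and up to 4 genes of each other list with at least 3 genes. EMCN, AKAP2, LAMP2, CAV1, CD36, SCD and S100B are named besides these, chosen after their values were seen. Members and the 29 lists, some drawn by symbol prefix, were chosen with earlier results of these data known. Of the lists, 22 had at least 3 genes compared. Alternatives were centring, exact 0, medians, accessions, spot minimum, scaling, each tissue left out, the adrenal sign and the reference arrays. Python 3.11.15, numpy 2.4.6, pandas 2.3.3 and matplotlib 3.10.9 were used.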

Additional observations from a re-analysis of the deposited data

Results flagged for a closer look

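On the 8 tissue arrays, 4 of 102 named genes (3.92%) had an adrenal value far from the other 7, as the gap to the nearest tissue was a large share of the whole range (above the 95% limit of Dixon’s test): SF3B3 at -1.06, SEC22B at -0.42, GIT2 at -0.39 and CRTC1 at -0.34. The gap was 0.75 of the range for SF3B3, 0.57 for SEC22B, 0.68 for GIT2 and 0.57 for CRTC1. The tissues are not replicates of a group, and these genes were named for their distance from the other tissues. Chance marks about 1 in 20 sets of values when any of the 8 arrays may be the far one. Only adrenal was looked at here, so the 3.92% cannot be read against that rate. GIT2 rested on spots from -0.91 to 0.15.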

How the results depend on the processing

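No paired analysis was possible because each tissue had 1 array and no replicate number ties tissues together. The correlation of adrenal with the mean of the other 7 tissues stayed below 0 except with the adrenal sign turned (0.20) and after subtraction of the average of both reference arrays (0.65), which takes the same values from every array. Without 1 tissue each it ran from -0.24 to -0.16. With the sign turned, 14 genes lay at least 0.5 from the mean of the other tissues, 8 of them below, 57 lay above the highest tissue and 31 on the opposite side of all 7, and differences became -0.44 for C3, 0.18 for CD151, 0.10 for CRTC1, -0.078 for EIF5A, 0.19 for GIT2, 0.18 for IGSF5, 0.19 for KRR1, 0.17 for PDHA1, 0.36 for RAB18, 0.039 for RPL9, 0.13 for SCARB2, 0.27 for SEC22B, 0.80 for SF3B3 and -0.026 for VEZF1. The count of 26 genes at least 0.5 away (5 above, 21 below) was 11 (7 below) with arrays scaled to the adrenal MAD, and 17 (13 below) without ileum and mammary gland. It was 132 (53 and 79) at a threshold of 0.3 and 1 (0 and 1) at 1. With each of 27 runs of spots centred, chosen after the data were seen, 11 lay below. Without 1 tissue each, 14 to 31 genes were at least 0.5 away, 3 to 7 above and 11 to 26 below. Without ileum and mammary gland 166 genes lay above the highest tissue and 110 went against all the rest. Without 1 tissue each, 107 to 139 lay above the highest, 117 to 141 below the lowest, 226 to 280 outside the range and 68 to 105 (105 without liver) against all the rest. A shorter list of tissues makes the last counts larger by construction. The cause of the other moves was not tested. Of 1827 recomputed differences of named genes 1516 moved by less than the SD over spots. That total pools unlike settings. Centring of arrays, exact 0 and accessions moved 0 of 102 genes by that much. Centring the runs moved 49, scaling to the adrenal MAD 38 and the median over the other tissues 30. The turned sign moved 70 and reversed 14 more. The low ratios of the adrenal array limit what can be told from spot noise.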

Other observations

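Clones without a gene name leaned the same way as the named ones, with an r nearer to 0. Of 372 such clones with a value on all tissue arrays, the other 7 tissues were all positive for 29, of which adrenal was negative for 17, and all negative for 52, of which adrenal was positive for 30. Pearson r between adrenal and the mean of the other 7 was -0.11 over these clones, against -0.20 over the named genes. Of the 372 clones 84 lay above the highest of the other 7 and 53 below the lowest. Of the 695 named genes 105 (15.1%) lay above and 113 (16.3%) below. The clones thus lay above that range more often than the named genes, and below it less often. The differences ran from -0.92 to 0.70, and 17 clones (4.57%) lay at least 0.5 from the mean of the other tissues, against 8.03% and 19.1% that lay that far from 0 on the reference against reference arrays 1 and 2.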
